A study of Mus musculus with 2931 samples.

Results

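Endothelial cells (EC), which line the blood and lymph vessels, were compared in the distal lung of mouse embryos at day E18.5, shortly before birth. The comparison set the cells that the authors labelled Proliferative EC against those they labelled Nonproliferative embryonic EC, within each mouse. The members were the cells that carried either label at E18.5, 508 of the 591 EC of that age and of 2931 EC from 10 mice in all. There were 206 Proliferative EC, 122 from the female and 84 from the male mouse, and 302 Nonproliferative embryonic EC, 134 and 168. Both mice were labelled normal in treatment. The strain, and whether a mouse name stands for 1 embryo or a pool, are not given in the sources used here. Mice of postnatal day P7, 1 female and 1 male in normal air and 1 of each under hyperoxia, had cells with the same proliferative label. These were set against the Early Car4- capillaries in the same fit, for comparison and for the spread between mice. A female and a male mouse of P1 in normal air entered 1 alternative fit only. Cells were sorted singly into plates, their cDNA was cut with the Tn5 transposase, and reads were counted per gene. Class levels below are the reads of all cells of a class and mouse, as CPM, that is, scaled to a common total.

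A cycling cell licenses its replication origins in G1 by loading the MCM helicase, copies its DNA in S phase, and builds a spindle that separates the chromosomes in mitosis. Genes of the first steps are driven mainly by E2F factors, and genes of G2 and mitosis are held off in resting cells by the DREAM complex, which binds CHR elements near their start sites, and are switched on by MYB and FOXM1. In the lung around birth, EC divide to extend the capillary bed. A label that marks cycling cells may itself rest on such genes, and how the labels were made is not given in the sources used here, so the p-values below say how large a difference was beside the spread between mice and are no independent evidence that the classes differ.

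The female mouse had 98545597 reads in Proliferative EC and 95832667 in Nonproliferative embryonic EC, and the male mouse 67586124 and 136948689. The median depth of a cell lay between 649271.5 and 746356.5 reads in the 4 sums. Of the CD31-sorted EC, Proliferative EC made up 120 of 296 in the female mouse, 40.5% (95% exact binomial interval 34.9 to 46.4%), and 83 of 292 in the male mouse, 28.4% (23.3 to 34.0%). These intervals cover counting error only and not the spread between mice. The CD31-sorted cells of each mouse carried 1 batch code (DC and a number) in their names, a different one for each mouse. What the code stands for is not read from the names. Classes were thus compared within a code, and sex cannot be told apart from it. Only 3 members, all Proliferative EC, came from other gates. All 10 fixed cycling markers had reads in every sum and together reached 7953 and 7140 CPM in Proliferative EC against 297 and 325 CPM in the other class. All 15 endothelial markers had reads in every sum, with 14761 and 14833 CPM in Proliferative EC and 15794 and 17778 CPM in Nonproliferative embryonic EC. The 12 immune markers summed to at most 32.3 CPM, in male Nonproliferative embryonic EC, where Fcer1g had 25.1 CPM and Tyrobp and S100a8 had reads. The 12 mesenchymal markers summed to at most 29.2 CPM, in female Nonproliferative embryonic EC, where Acta2 had 21.4 CPM and Dcn had reads. Between 2 and 5 of the immune and between 0 and 2 of the mesenchymal markers were at 0 in a sum. The 12 epithelial markers summed to 54.5 and 36.2 CPM in Proliferative EC and to 194 and 77.7 CPM in the other class, most of it Sftpc, and Scgb1a1 was at 0 in 3 of the sums. The 5 erythroid markers with a row in the table summed to 346 CPM in male Proliferative EC and to at most 22.8 CPM elsewhere, and 99.7% of the Hbb-bs reads there came from 1 cell. The part of these reads in the results was not tested.

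With each cell thinned to 50000 reads, Proliferative EC held more genes. The median was 3040.5 and 2899 detected genes in the female and male mice, against 2553.5 and 2149 in Nonproliferative embryonic EC. Mki67, a protein of the mitotic chromosome surface used to mark cycling cells, had a read in 98.4% and 92.9% of Proliferative EC and in 20.5% and 10.7% of Nonproliferative embryonic EC at that depth. Top2a, the topoisomerase that untangles sister chromosomes, had one in 92.6% and 92.9% against 24.2% and 15.5%. No thinned read of either gene was found in 0 of 122 and 1 of 84 Proliferative EC, and in 86 of 132 and 131 of 168 of the other class. So some cells without the proliferative label held reads of these markers, more of them in the female than in the male mouse.

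Across 14785 genes, the edgeR quasi-likelihood test with the mouse as a term called 131 at an adjusted p under 0.05, which is 0.886% of those tested. Of these, 125 (0.845%) were higher and 6 (0.0406%) lower in Proliferative EC, and 1176 genes had an unadjusted p under 0.05. The difference had the same sign in both mice for 130 of the 131. The exception was Hs3st1, a heparan sulfate sulfotransferase named after its values were seen, whose 279 reads all came from 3 female Proliferative EC. For comparison, 25.1% of all genes tested were higher and 30.7% lower in Proliferative EC in both mice, whatever the size. Most differences were large: 112 of the called genes differed more than 4-fold and 57 more than 16-fold. The median over the 125 was 3.53 on the log2 scale, against -0.05 over all genes tested. The 12 lists of cell cycle genes, chosen with earlier results of these data known, held 291 of the 14785 genes tested and 80 of the 125. The count rested on both mice, since 41 genes were called without the female and 47 without the male E18.5 mouse, where the spread of the remaining embryo is taken from the P7 mice.

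**Figure D1:**
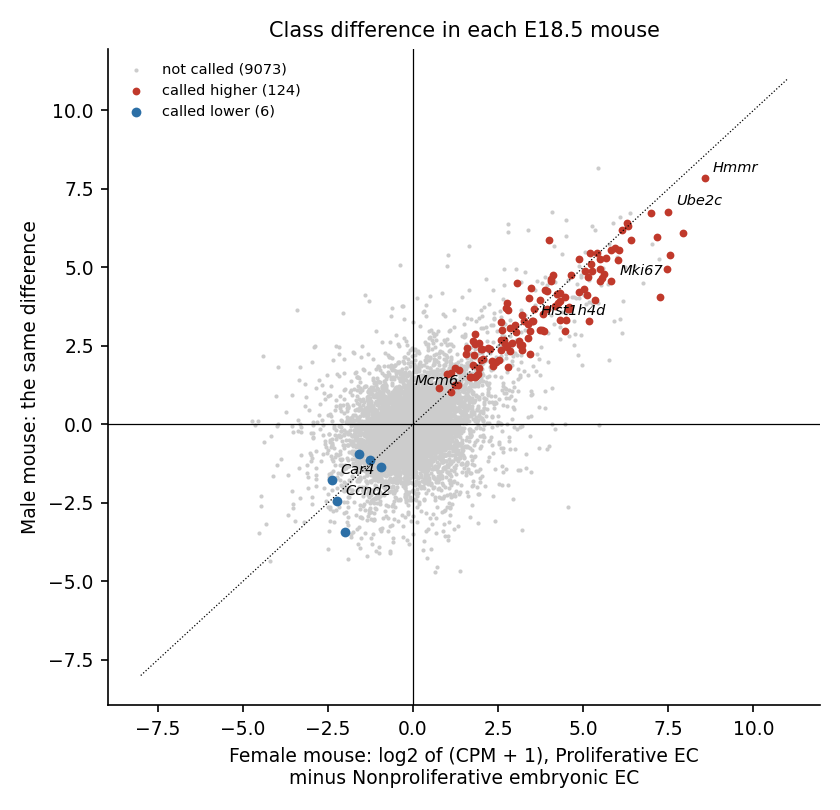
Class difference in the female (horizontal axis) and the male E18.5 mouse (vertical axis), as log2 of CPM + 1 in Proliferative EC minus that in Nonproliferative embryonic EC, for 9203 genes with a mean of at least 10 CPM in either class. The dotted line marks equal differences, and the 124 genes called higher (red) and 6 called lower (blue) lie in the corners where both mice moved the same way.

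The kinases, cyclins and ubiquitin ligase parts that drive entry into and exit from mitosis were higher in Proliferative EC. Of 25 tested, 11 were called higher and 0 lower, 24 were higher in both mice, and the list's median difference was 4.37 (log2). Cdk1, the kinase that starts mitosis, had 839 and 1313 CPM in the female and male Proliferative EC and 90.1 and 118 CPM in the other class. Its log2 difference was 3.38 (SE 0.28, edgeR adjusted p 0.00207). Ccna2, the cyclin A that pairs with CDKs in S phase and G2, had 320 and 305 CPM against 4.65 and 5.45 CPM, a log2 difference of 5.98 (SE 0.30, edgeR adjusted p 0.000468). In both genes the 2 mice of a class lay close together and far from the other class. Ube2c, the E2 enzyme of the anaphase-promoting complex, had 1000 and 1312 CPM against 4.55 and 10.97 CPM (log2 difference 7.37, SE 0.51, edgeR adjusted p 0.00131). Cdc20, which activates that complex, had 323 and 766 CPM against 18.48 and 30.2 CPM (log2 difference 4.43, SE 0.74, edgeR adjusted p 0.0422). Ccnf, an F-box protein that marks cycle proteins for destruction, had 181 and 101 CPM against 1.29 and 0.277 CPM (log2 difference 7.81, SE 1.02, edgeR adjusted p 0.0135). Ube2c thus had a read, after thinning, in 82.0% and 82.1% of Proliferative EC and in 2.27% and 3.57% of the others.

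Some of the best-known mitotic genes did not pass in edgeR. Ccnb1, cyclin B1, had 148 and 183 CPM in Proliferative EC and 5.62 and 1.90 CPM in the other class, with an edgeR adjusted p of 0.167. Of its reads in female Nonproliferative embryonic EC, 94.2% came from 1 of 134 cells, and it was called in 6 of 15 alternatives. Reads from 1 cell also made up most of the noncycling level of some called genes, such as 82.1% for Ube2c and 100% for Ccnf in the female mouse and 96.9% for Bub1b in the male mouse. Plk1, the polo kinase, had 292 and 290 CPM against 5.73 and 0.0219 CPM (edgeR adjusted p 0.322), and Aurkb, the kinase of the chromosomal passenger complex, 286 and 414 CPM against 8.79 and 11.7 CPM (edgeR adjusted p 0.414). The 2 classes did not overlap in these genes, and their SEs on the log2 scale, derived from the test itself, were 1.34, 2.54 and 1.67.

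**Figure D2:**
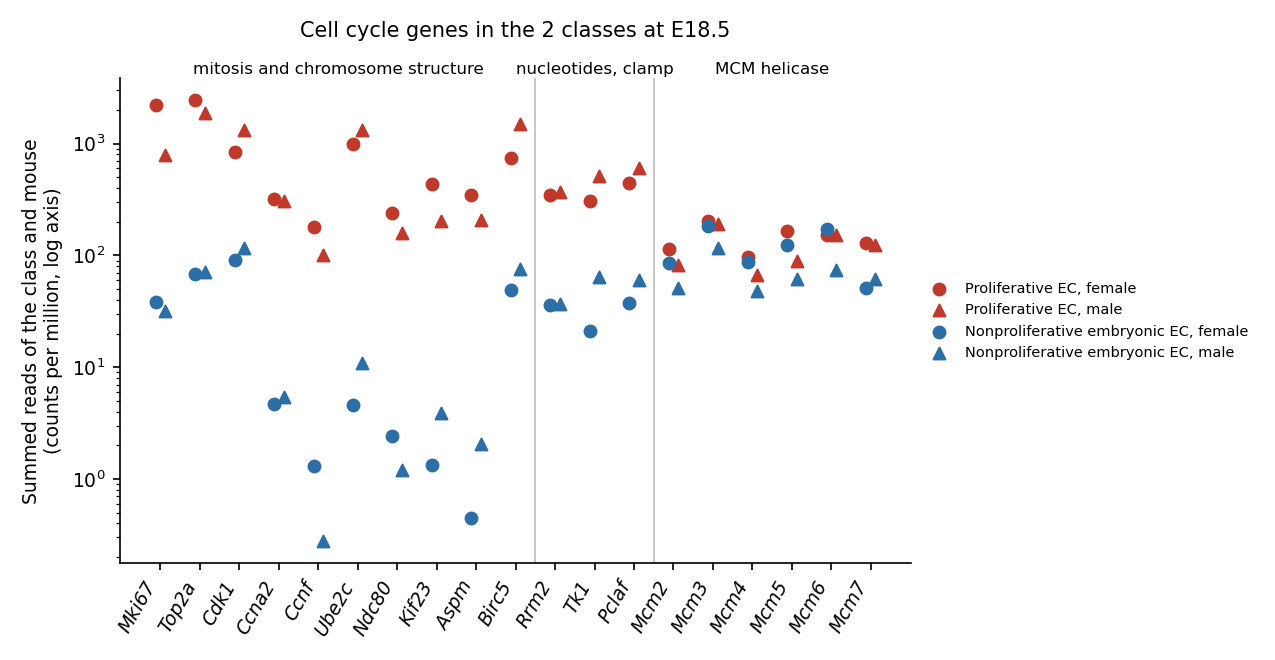
Level of 19 cell cycle genes, in CPM of the summed reads on a log axis, in Proliferative EC (red) and Nonproliferative embryonic EC (blue) of the female (circles) and male (triangles) mouse. The classes lie far apart for the mitotic genes, as for Ccna2 at 320 and 305 against 4.65 and 5.45 CPM. They lie closer together for the 6 MCM genes, whose fitted log2 differences run from 0.35 to 1.21. Mcm3, for one, had 202 and 192 against 181 and 117 CPM.

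Start sites of 5 of these genes and of the MCM helicase gene Mcm6 are shown as examples. The letters upstream of mitotic genes called higher can thus be read beside those of a licensing gene that was not called. The examples were not picked by a stated rule. Mitotic genes with larger differences than any of them, such as Hmmr and Aspm, are not shown. The sequences are the 200 bases before the RefSeq start site, read 5′ to 3′ on the gene's strand, from RefSeq on GRCm38.p6. Ube2c lies at chr2:164769729-164769928 (plus strand), Top2a at chr11:99024190-99024389 (minus strand), Cdk1 at chr10:69352913-69353112 (minus strand), Cdc20 at chr4:118437344-118437543 (minus strand), Ccnf at chr17:24251410-24251609 (minus strand) and Mcm6 at chr1:128359706-128359905 (minus strand). Capitals mark the CHR letters TTTGAA, the CCAAT box letters CCAAT and the E2F letters TTTCCCGC, TTTCGCGC, TTTGCCGC or TTTGGCGC, each also as its reverse complement.
Ube2c: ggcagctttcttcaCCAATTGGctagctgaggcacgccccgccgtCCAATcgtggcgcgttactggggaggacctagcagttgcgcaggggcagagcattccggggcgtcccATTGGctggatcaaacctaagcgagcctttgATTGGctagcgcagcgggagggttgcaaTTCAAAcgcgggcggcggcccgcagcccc
Top2a: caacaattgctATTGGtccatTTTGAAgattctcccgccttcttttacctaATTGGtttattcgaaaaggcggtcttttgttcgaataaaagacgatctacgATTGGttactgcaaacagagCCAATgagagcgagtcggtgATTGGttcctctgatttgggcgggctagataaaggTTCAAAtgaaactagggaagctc
Cdk1: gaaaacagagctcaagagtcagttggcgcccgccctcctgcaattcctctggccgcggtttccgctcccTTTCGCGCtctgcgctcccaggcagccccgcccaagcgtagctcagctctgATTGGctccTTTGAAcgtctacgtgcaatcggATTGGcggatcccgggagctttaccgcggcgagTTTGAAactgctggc
Cdc20: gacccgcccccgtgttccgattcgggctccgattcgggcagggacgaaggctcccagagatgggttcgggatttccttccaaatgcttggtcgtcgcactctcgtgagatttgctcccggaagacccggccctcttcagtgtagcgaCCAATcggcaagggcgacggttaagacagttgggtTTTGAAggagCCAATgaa
Ccnf: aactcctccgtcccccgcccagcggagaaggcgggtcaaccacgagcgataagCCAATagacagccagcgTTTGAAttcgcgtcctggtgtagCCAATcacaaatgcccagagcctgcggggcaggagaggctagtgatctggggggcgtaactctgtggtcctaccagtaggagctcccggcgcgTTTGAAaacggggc
Mcm6: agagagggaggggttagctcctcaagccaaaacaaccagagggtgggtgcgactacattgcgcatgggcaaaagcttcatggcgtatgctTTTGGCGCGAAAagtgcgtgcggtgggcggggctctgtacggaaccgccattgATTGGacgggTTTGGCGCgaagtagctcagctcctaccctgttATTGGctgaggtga

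Ube2c, Cdc20, Cdk1, Top2a and Ccnf each held CHR letters within 29 bases of the start site, and CCAAT letters upstream of them. Mcm6 held E2F letters at 3 places, of which the first 2 overlap, and no CHR letters. Cdk1 held both kinds. The same letters were counted in the whole RefSeq window of 300 bases, from 250 before to 50 after the start. RefSeq windows were found for 104 of the 125 genes called higher, by symbol or by a synonym of 1 gene alone, and gave 120 windows. CHR letters were in 54.2% of these and in 17.9% of all 32851 windows in the table, and CCAAT letters in 65.8% and 37.4%. Both stood together in 40.8% and 6.95%. E2F letters were in 10.8% and 2.26%. Only 76.1% of the genes tested had a window, too few for a matched background. Over their 14255 windows the shares were 12.5% for CHR, 5.08% for both and 3.86% for E2F letters. In the 82 windows of the 3 mitosis lists, CHR letters were in 57.3% and E2F letters in 8.54%. In the 48 windows of the licensing and fork lists, CHR letters were in 18.8% and E2F letters in 37.5%. The 2 lists differed: CHR letters were in 35.3% of the 17 licensing windows and in 9.68% of the 31 fork windows. E2F letters were in 52.9% and 29.0%. Mcm6, without CHR letters, thus does not stand for all licensing genes. Nor do the mitotic genes shown, which all held CHR letters, stand for the mitosis lists, where 57.3% of the windows did. These are matches of letters, and binding was not measured.

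The spindle and cytokinesis list held more called genes than any other list tested here, 23 of 34, all 34 higher in both mice, with a median difference of 5.08 (log2). Hmmr, a spindle protein that also binds hyaluronan, had 382 and 228 CPM in Proliferative EC, and in the other class 1 read in the female and 0 in the male mouse. Over pooled reads its ratio was 74378, with a 95% interval from 13349 to 2937820 that covers counting error only, and its edgeR adjusted p was 0.0122. Aspm, which focuses spindle poles, had 350 and 209 CPM against 0.449 and 2.06 CPM (log2 difference 8.09, SE 0.95, edgeR adjusted p 0.00838). Kif23, a motor of the central spindle, had 436 and 204 CPM against 1.33 and 3.88 CPM (log2 difference 7.04, SE 0.78, edgeR adjusted p 0.00674). These genes were close to absent from Nonproliferative embryonic EC, so the fitted folds rest on few reads there. Kif14, another motor of cytokinesis, had 65.7 and 48.8 CPM against 0.0835 and 0.0146 CPM (edgeR adjusted p 0.00638). Nusap1, which bundles spindle microtubules, had 301 and 266 CPM against 1.09 and 3.25 CPM (edgeR adjusted p 0.0269). Birc5, the survivin subunit of the passenger complex, had 740 and 1497 CPM against 49.5 and 75.4 CPM (edgeR adjusted p 0.00511). Smaller differences were also called in this list. Tubb5, a tubulin, had 3539 and 8195 CPM against 1515 and 3421 CPM, a log2 difference of 1.27 (SE 0.13, edgeR adjusted p 0.00513), and Stmn1, which destabilises microtubules, had 1253 and 1544 CPM against 391 and 540 CPM (log2 difference 1.63, edgeR adjusted p 0.00563).

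Genes of the kinetochore, which joins chromosomes to spindle fibres, and of its checkpoint gave 15 of 31 called higher, all 31 higher in both mice, with a median of 4.23. Ndc80, which grips the fibre, had 241 and 159 CPM in Proliferative EC and 2.41 and 1.20 CPM in the other class (log2 difference 6.87, SE 0.35, edgeR adjusted p 0.000468). Bub1b, a checkpoint kinase relative, had 134 and 162 CPM against 1.64 and 3.09 CPM (log2 difference 6.05, edgeR adjusted p 0.00207). Cenpe, a kinetochore motor, had 818 and 495 CPM against 21.3 and 10.3 CPM (log2 difference 5.45, edgeR adjusted p 0.00154). Bub3, a checkpoint protein with a use outside mitosis, had 417 and 937 CPM against 176 and 345 CPM and did not pass (edgeR adjusted p 0.0578).

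Genes of chromosome structure gave 13 of 23 called higher, all 23 higher in both mice, with a median of 2.64. Mki67 had 2226 and 784 CPM in Proliferative EC and 38.6 and 32.03 CPM in the other class, a log2 difference of 5.26 (SE 0.46, edgeR adjusted p 0.0024). Top2a had 2431 and 1890 CPM against 68.5 and 71.4 CPM, a log2 difference of 4.97 (SE 0.34, edgeR adjusted p 0.00131). The condensin subunit Smc2 had 851 and 830 CPM against 81.2 and 88.7 CPM (log2 difference 3.34, edgeR adjusted p 0.00226). The cohesin subunit Rad21, which resting cells also use, had 424 and 303 CPM against 102 and 70.0 CPM (log2 difference 2.11, edgeR adjusted p 0.00434). Hmgb2, a chromatin protein, had 991 and 1145 CPM against 135 and 134 CPM (log2 difference 3.01, edgeR adjusted p 0.00152).

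Of 21 regulators that switch cell cycle genes on or off, edgeR called Foxm1 alone, DESeq2 8 and limma 1, and 9 had an unadjusted p under 0.05 in edgeR. Foxm1 had 102 and 97.6 CPM in Proliferative EC against 1.45 and 1.26 CPM (log2 difference 6.24, SE 0.46, edgeR adjusted p 0.00152). Mybl2, the cycling MYB factor, had 26.4 and 22.9 CPM against 5.45 and 0.796 CPM and did not pass (edgeR adjusted p 0.302). The repressors E2f7 and E2f8, which close the S phase programme, had 65.7 and 52.7 CPM against 15.5 and 3.86 CPM, and 67.5 and 31.9 CPM against 2.05 and 1.79 CPM, with edgeR adjusted p of 0.252 and 0.492. The list's median difference was 1.22.

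Genes that license origins had a smaller median difference, 1.17. Of 20, 16 were higher in both mice. The edgeR test called Dbf4 alone, with 10 at an unadjusted p under 0.05, while 10 passed in DESeq2 and 3 in limma. Dbf4, the activating subunit of the CDC7 kinase that fires origins, had 126 and 93.5 CPM in Proliferative EC and 4.62 and 8.48 CPM in the other class (log2 difference 4.14, SE 0.47, edgeR adjusted p 0.00728). None of the 6 genes of the MCM2 to MCM7 helicase was called by edgeR, with 1 of them at an unadjusted p under 0.05, and DESeq2 called 1 and limma 0. Their fitted differences lay between 0.35 and 1.21, and edgeR adjusted p between 0.311 and 0.933. Of the 6, 5 were higher in both mice. On simulated data the test recovered 2% of genes changed by 1 on the log2 scale. The lack of calls therefore says little of differences of that size. Mcm6 had 151 and 154 CPM in Proliferative EC and 173 and 74.0 CPM in Nonproliferative embryonic EC, so the classes overlapped. Mcm2 had 115 and 82.2 CPM against 84.8 and 51.0 CPM, and Mcm7 had 130 and 124 CPM against 51.2 and 61.6 CPM. After thinning, Mcm6 had a read in 50.8% and 51.2% of Proliferative EC and in 36.4% and 22.6% of the others. Cdt1 and Cdc6, which load the helicase, had 102 and 66.3 CPM against 47.5 and 23.9 CPM, and 60.9 and 27.3 CPM against 15.5 and 14.4 CPM. Gmnn, which blocks a second loading, had 185 and 186 CPM against 68.0 and 81.0 CPM (edgeR adjusted p 0.0541).

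At the replication fork 4 of 28 genes were called higher, 24 were higher in both mice and the median was 1.15. They were Clspn, Rfc5, Uhrf1 and Dnmt1, which lost their call in 3, 7, 3 and 6 of 15 alternatives. DESeq2 called 13 of the list and limma 7. Clspn, which couples the fork to its checkpoint, had 149 and 115 CPM against 15.2 and 19.01 CPM (log2 difference 2.98, edgeR adjusted p 0.025). Dnmt1, which copies DNA methylation to the new strand, had 552 and 207 CPM against 219 and 85.7 CPM (log2 difference 1.33, edgeR adjusted p 0.0301). The sliding clamp Pcna had 235 and 340 CPM against 140 and 134 CPM (log2 difference 1.08, edgeR adjusted p 0.1). Pclaf, which binds that clamp but is in no list and was named outside the naming rule, had 441 and 599 CPM against 37.3 and 59.8 CPM (log2 difference 3.47, SE 0.21, edgeR adjusted p 0.00123). Of 18 genes of nucleotide supply 4 were called higher, 11 were higher in both mice and the median was 0.95. The 4 make deoxynucleotides: Rrm1 and Rrm2 of ribonucleotide reductase, Tk1 and Tyms of thymidylate synthesis. Tyms lost its call in 7 of 15 alternatives and the other three in 1 each. Rrm2 had 350 and 369 CPM against 35.7 and 36.4 CPM (log2 difference 3.35, SE 0.28, edgeR adjusted p 0.00207). Tk1 had 307.1 and 516.5 CPM against 21.1 and 63.9 CPM (log2 difference 3.47, SE 0.35, edgeR adjusted p 0.00511).

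Histone genes of the replication-dependent clusters were higher in Proliferative EC in both mice for 32 of 35 genes tested, with a median of 4.404, and 6 were called. Hist1h4d had 1614 and 1358 CPM against 141 and 138 CPM (log2 difference 3.44, SE 0.24, edgeR adjusted p 0.00141). Hist1h2ae had 579 and 821 CPM against 11.8 and 33.8 CPM (log2 difference 5.14, edgeR adjusted p 0.0269). Hist1h1e, a linker histone, had 1622 and 254 CPM against 421 and 41.5 CPM (log2 difference 2.31, edgeR adjusted p 0.00944), so the female level in Nonproliferative embryonic EC was above the male level in Proliferative EC and the call rests on the difference within mice. Many core histone genes of these clusters are near-identical copies, so for them it is uncertain which copy a read came from. Most transcripts of the clusters lack the poly(A) tail. Of 36 genes of recombination and crosslink repair, edgeR called Rad51ap1 alone, DESeq2 12 and limma 2, and 16 had an unadjusted p under 0.05 in edgeR. Rad51ap1 had 137 and 107 CPM against 33.9 and 24.99 CPM (log2 difference 2.09, edgeR adjusted p 0.0278). The list's median was 1.59, and 29 of its genes were higher in both mice. Brca1 had 43.4 and 32.7 CPM against 6.57 and 1.77 CPM and did not pass (edgeR adjusted p 0.165).

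**Figure D3:**
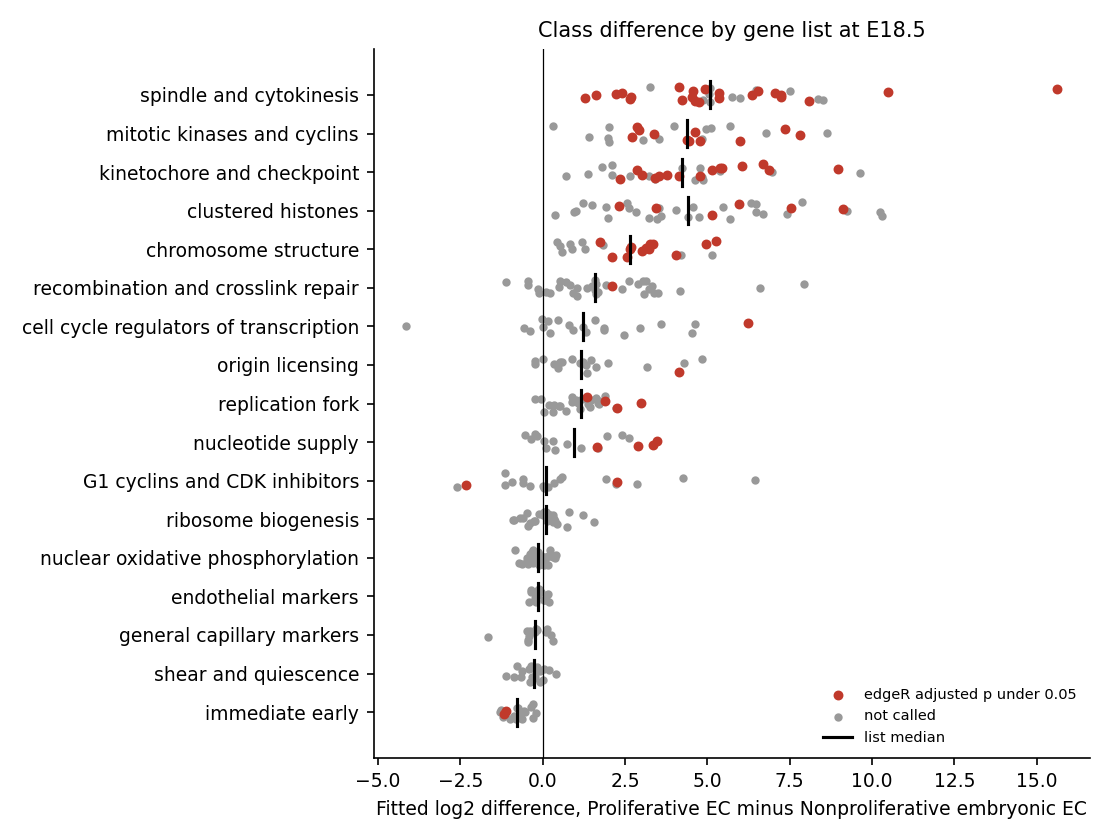
Fitted log2 difference, Proliferative EC minus Nonproliferative embryonic EC, of each tested gene of 17 lists. Red points passed an edgeR adjusted p of 0.05 and the black bar is the list median; the point farthest right is Hmmr, whose fitted value rests on 1 read in Nonproliferative embryonic EC. Medians run from 5.08 for spindle and cytokinesis over 1.17 for origin licensing to -0.77 for immediate early genes.

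The reads of the same cells were also counted cell by cell. This is no separate evidence, since the label may rest on these genes. At 50000 reads a cell, Proliferative EC held a read of a median 52 of the 90 genes in the 3 mitosis lists in the female mouse and 55.5 in the male mouse, and Nonproliferative embryonic EC of 8 in each. Of the Proliferative EC, 93 of 122 and 78 of 84 held more of these genes than any cell of the other class of the same mouse. For the 48 licensing and fork genes the medians were 20 and 18 against 7 and 6, and the classes overlapped. Here 19 of 132 and 23 of 168 Nonproliferative embryonic EC reached the median of Proliferative EC. Those 19 and 23 cells held a median of 17 and 18 mitosis genes, against 7 and 7 in the rest of their class, and a median of 3400 and 2784 detected genes against 2411 and 2089. In turn, 20 of 122 and 10 of 84 Proliferative EC held no more licensing and fork genes than the median cell of the other class, with a median of 31 and 34 mitosis genes. They also held fewer detected genes, with a median of 1641 and 2189 against 3189 and 2975.5 in the rest of their class. Cells with more detected genes have more genes of any list, and the part of this in these counts was not tested.

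**Figure D4:**
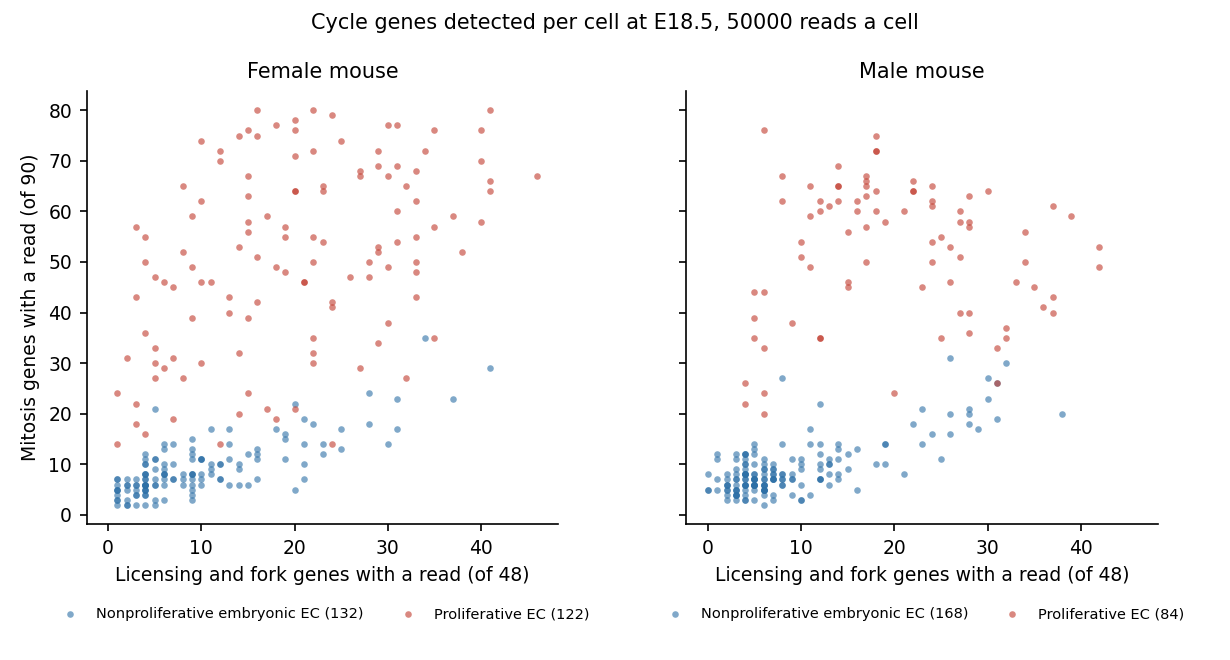
Each point is 1 cell thinned to 50000 reads, with the number of the 48 licensing and fork genes that had a read on the horizontal axis and the number of the 90 mitosis genes on the vertical axis, female mouse left and male mouse right. Proliferative EC (red) spread over the whole width with medians of 52 and 55.5 mitosis genes, and a tail of Nonproliferative embryonic EC (blue) reaches 41 and 38 licensing and fork genes, against a highest value of 46 and 42 in Proliferative EC, and lies low.

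Genes of the G1 decision went in both directions. Of 20 G1 cyclins and CDK inhibitors edgeR called 1 higher and 1 lower, with a median of 0.09, while DESeq2 called 6 and limma 4. Ccnd2, a D cyclin that responds to growth signals, was lower in Proliferative EC, with 48.9 and 32.6 CPM against 233 and 180 CPM (log2 difference -2.33, SE 0.35, edgeR adjusted p 0.0278). It had a thinned read in 18.9% and 21.4% of Proliferative EC and in 43.2% and 39.3% of the others. Ccnd2 lost its call without the female and without the male E18.5 mouse (edgeR adjusted p 0.226 and 0.269). Ccnd1 had 445 and 612 CPM against 847 and 757 CPM, and Ccnd3 had 98.1 and 157 CPM against 181 and 200 CPM. Both were lower in both mice, with edgeR adjusted p of 0.373 and 0.742. Ccne2, an E cyclin of S phase entry, had 76.2 and 60.7 CPM against 22.8 and 14.5 CPM (edgeR adjusted p 0.321). Cdkn2d, an inhibitor of the D cyclin kinases, was called higher, with 187 and 405 CPM against 54.0 and 63.7 CPM (log2 difference 2.26, SE 0.36, edgeR adjusted p 0.0356). Its relative Cdkn2c had 70.3 and 77.4 CPM against 5.90 and 0.0730 CPM (edgeR adjusted p 0.285). Cdkn1a, the p21 inhibitor, had 391 and 287 CPM against 266 and 277 CPM, and Cdkn1b, the p27 inhibitor, had 89.7 and 141 CPM against 66.1 and 88.0 CPM, neither of them called (edgeR adjusted p 0.909 and 0.763).

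The genes called lower in Proliferative EC besides Ccnd2 were Cyb5a, Ier3, Dusp1, Car4 and Mustn1, none of them a cell cycle gene. Cyb5a, an electron carrier of lipid metabolism, had 251 and 391 CPM in Proliferative EC and 761 and 748 CPM in the other class (log2 difference -1.24, SE 0.20, edgeR adjusted p 0.0403). Ier3, an immediate early gene, had 273 and 368 CPM against 658 and 805 CPM (log2 difference -1.17, SE 0.16, edgeR adjusted p 0.0196). Dusp1, a phosphatase that ends MAP kinase signals, had 431 and 952 CPM against 832 and 2447 CPM (log2 difference -1.13, SE 0.18, edgeR adjusted p 0.0345). Each of these 3 lost its call without either E18.5 mouse, where edgeR adjusted p was 0.523 and 0.0999 for Cyb5a, 0.341 and 0.241 for Ier3 and 0.143 and 0.533 for Dusp1 (female, then male mouse left out). With no mouse term in the model they were not called either. Of 18 immediate early genes tested 15 were lower in both mice, 0 were higher in both, and the median was -0.77, against 30.7% of all genes lower in both mice. Of the 18, edgeR called Ier3 and Dusp1, DESeq2 called 8 and limma 4, and 10 had an unadjusted p under 0.05 in edgeR. Fos, a transcription factor of this response, had 1572 and 1187 CPM against 2551 and 2395 CPM (edgeR adjusted p 0.145), Atf3 had 146 and 310 CPM against 424 and 683 CPM (edgeR adjusted p 0.0809), and Junb had 224 and 277 CPM against 354 and 716 CPM (edgeR adjusted p 0.311).

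Car4, the carbonic anhydrase that marks the alveolar capillary type called Car4+, had 24.4 and 13.6 CPM against 132 and 48.5 CPM (log2 difference -2.11, SE 0.35, edgeR adjusted p 0.0416). These levels came from few cells. In female Nonproliferative embryonic EC 11 of 134 cells had a read and 3 of them gave 98.4% of the reads. With equal weight for each cell (limma on the mean CPM over cells) its log2 difference was -0.56 (limma adjusted p 0.534). The share of cells with a read was 9.84% and 5.95% in thinned Proliferative EC against 6.06% and 3.57%, so it ran the other way and no order is read from it. Mustn1 had 0.355 and 1.21 CPM against 4.39 and 22.8 CPM, from 5 and 8 cells of the higher class (edgeR adjusted p 0.0179).

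Fitted differences of the endothelial identity genes lay between -0.43 and 0.18. Of 15 fixed endothelial markers edgeR called 0, with 1 at an unadjusted p under 0.05 and 0 called by DESeq2 or limma, and the median difference was -0.14. Pecam1, the CD31 protein used in the sort, had 1729 and 1007 CPM in Proliferative EC and 1697 and 995 CPM in the other class. Cdh5, VE-cadherin of the junctions, had 1143 and 635 CPM against 1291 and 708 CPM. Egfl7, a secreted endothelial protein, had 2987 and 3672 CPM against 3365 and 4216 CPM. Cldn5, a tight junction protein, had 943 and 2139 CPM against 1383 and 2766 CPM (log2 difference -0.43, SE 0.14, edgeR adjusted p 0.43). Of 15 general capillary markers edgeR called 0, with 2 at an unadjusted p under 0.05 and 1 each called by DESeq2 and limma. Their median was -0.25, with 8 lower and 0 higher in both mice. Gpihbp1, which holds lipoprotein lipase on capillaries, had 910 and 1709 CPM against 1400 and 2224 CPM (log2 difference -0.47, SE 0.13, edgeR adjusted p 0.299). Cadm1, an adhesion molecule, had 39.2 and 31.9 CPM against 83.5 and 155 CPM (log2 difference -1.66, edgeR adjusted p 0.0927). Of the 14 Car4+ capillary markers edgeR called Car4 alone, DESeq2 2 and limma 0, and 3 had an unadjusted p under 0.05 in edgeR. Ednrb, an endothelin receptor of that type, had 374 and 402 CPM against 318 and 392.1 CPM, and Emp2, a membrane protein of it, had 68.3 and 20.1 CPM against 25.4 and 7.52 CPM (edgeR adjusted p 0.121). In the female mouse 95.3% of the Emp2 reads in Nonproliferative embryonic EC and 57.8% of those in Proliferative EC came from 1 cell. Of 14 arterial markers 7 were lower and 0 higher in both mice, and of 12 venous markers 1 was lower and 4 were higher in both. Over all genes tested 30.7% were lower and 25.1% higher in both mice, so no order of the 2 types is read from these counts. edgeR called 0 in each, with 1 in each at an unadjusted p under 0.05. By either DESeq2 or limma, 0 arterial markers and 1 venous marker passed. Sox17, an arterial factor, had 276 and 217 CPM against 406 and 288 CPM, and Lyve1, a hyaluronan receptor of lymphatic and of embryonic EC, had 1103 and 1085 CPM against 1029 and 953 CPM.

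**Figure D5:**
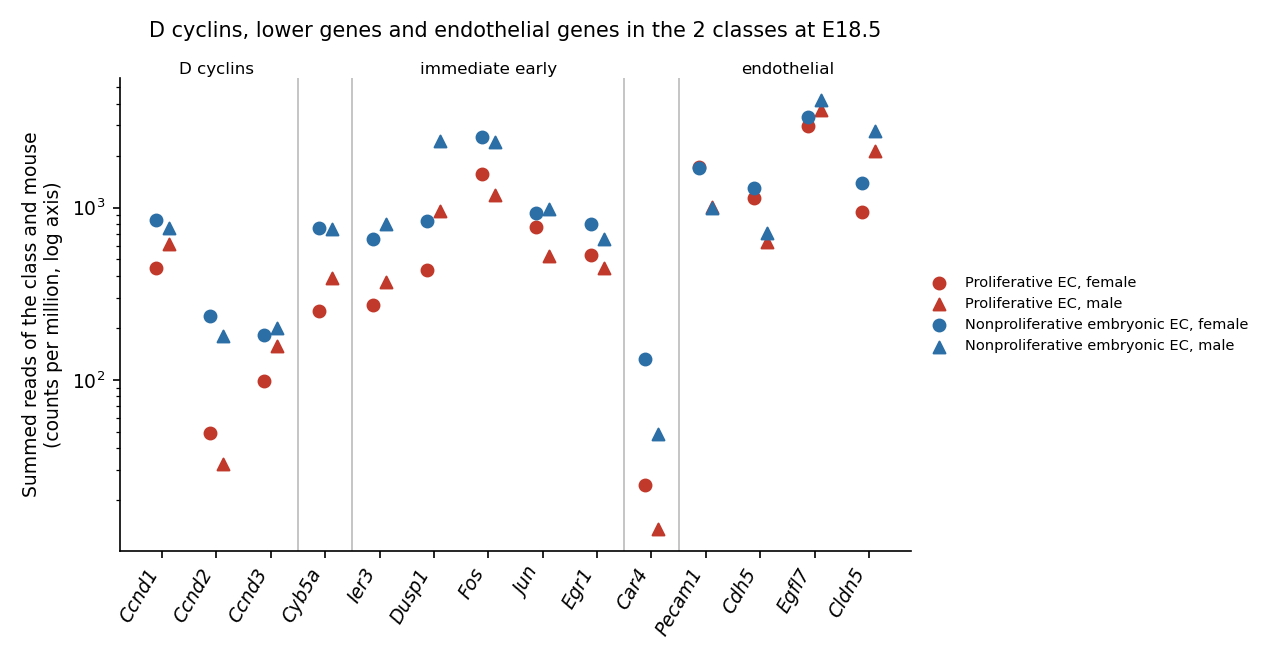
Level of D cyclins, genes called lower, immediate early genes and endothelial genes, in CPM of the summed reads on a log axis, in Proliferative EC (red) and Nonproliferative embryonic EC (blue) of the female (circles) and male (triangles) mouse. Ccnd2 shows a wide gap, at 48.9 and 32.6 against 233 and 180 CPM, and Pecam1 almost none, at 1729 and 1007 against 1697 and 995 CPM.

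In no list stood 45 of the 125 genes called higher. Iqgap3, a scaffold protein, had 134 and 109 CPM in Proliferative EC and 0.0730 and 0.0365 CPM in the other class (log2 difference 11.2, SE 1.31, edgeR adjusted p 0.00833). Pif1, a DNA helicase, had 68.6 and 37.2 CPM against 0.0730 and 0.0146 CPM (log2 difference 10.4, edgeR adjusted p 0.0167). Cip2a, which restrains the phosphatase PP2A, had 113 and 110 CPM against 0.470 and 0.307 CPM (log2 difference 8.22, edgeR adjusted p 0.0269). Pbk, a mitotic kinase, had 267 and 280 CPM against 3.04 and 5.02 CPM (log2 difference 6.15, edgeR adjusted p 0.032). Cep55, of the last step of cytokinesis, had 166 and 107 CPM against 8.68 and 3.00 CPM (log2 difference 4.73, edgeR adjusted p 0.00944). Neil3, a DNA glycosylase, had 186 and 137 CPM against 6.86 and 9.41 CPM (log2 difference 4.34, edgeR adjusted p 0.00728). Knstrn, a kinetochore-linked spindle protein, had 211 and 414 CPM against 15.1 and 25.4 CPM (log2 difference 3.94, SE 0.29, edgeR adjusted p 0.00152). The further genes that the naming rule gives, with at least 50 CPM, a read in 25% of cells and no clone name, were Cdca3, Spdl1, Haspin, Cep89 and Diaph3, with log2 differences of 6.08, 4.97, 4.73, 4.10 and 3.98. Several of them, such as Haspin, Spdl1 and Pbk, are known mitotic genes that the fixed lists left out. The female level of Diaph3, a formin that builds actin filaments, was 366 CPM in Proliferative EC and the male level 76.0 CPM, against 17.6 and 6.64 CPM.

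At P7 the same proliferative label was set against Early Car4- capillaries, so the age and the noncycling label differ together from the embryo. There, edgeR called 177 of 14785 genes (1.2%) in normal air, 170 of them higher in Proliferative EC, and 110 of the 131 genes called at E18.5 were also called. All 131 had the same direction of the fitted difference in the P7 mice. The label is the same and may rest on these genes, and both ages shared the same fit. The likeness between the ages is therefore no independent evidence. The 125 genes called higher at E18.5 had a median of 3.53 there and of 3.63 at P7. The medians of the 90 mitosis genes were 4.76 and 5.19 at E18.5 and P7, and those of the 48 licensing and fork genes 1.16 and 1.47. The 6 MCM helicase genes had differences between 0.38 and 1.57 at P7, with 1 called. The P7 Early Car4- capillaries held a median of 5 and 7 licensing and fork genes per thinned cell. The difference between the ages was itself tested as an interaction, and edgeR called 0 genes against P7 in normal air (0.0%) and 0 against hyperoxia (0.0%), with 526 and 632 at an unadjusted p under 0.05, 99 and 188 called by DESeq2 and 0 and 0 by limma. Ier3 and Dusp1 had log2 differences of -0.18 and -0.04 at P7 in normal air and the immediate early list a median of -0.09. Ccnd2 had -1.39 at P7 in normal air and -2.37 under hyperoxia. In none of these genes was the interaction past the threshold, so a difference between the ages is not shown.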

How the data were processed

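Per the submitters' processing notes, reads were aligned with STAR 2.5.2b and counted with HTSeq 0.10. The build those notes name is GRCh38, a human one; the mouse build and annotation are not given in the sources used here. The authors deposited whole-number counts per gene and cell, without normalization, and cell labels. The table also held 707 columns of per-cell counts that were not used.

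Counts were summed per mouse and class over 18072 genes and fitted in edgeR 4.0.16 (R 4.3.3; filterByExpr, TMM, quasi-likelihood test, Benjamini-Hochberg adjustment, threshold 0.05). The 12 sums came from the 6 E18.5 and P7 mice, with the mouse as a term, since both classes came from the same animal, which leaves 3 residual degrees of freedom. The members and the 39 gene lists were chosen with earlier results of these data known. Besides list members, the text names up to 12 called genes per direction with the largest difference, the same sign in both mice, at least 50 CPM and a read in 25% of cells. Pclaf, Hs3st1 and Mustn1 are in no list and were named outside this rule. A gene that this rule names is not reported here. Shares per cell used cells thinned to 50000 reads, which left out 2 shallower cells. Doublets were not called. P-values cover only the spread between these mice. Each SE is the size of the log2 difference divided by the square root of the test's F statistic. It therefore follows from the difference and the p-value and is no separate estimate. Data were simulated for 14551 genes and the class difference at E18.5. The test recovered 2, 58, 84 and 94% of genes changed by 1, 2, 3 and 4 on the log2 scale. It called 6 unchanged genes. The changed genes were drawn above a minimum mean CPM. Each gene was given the spread of the trend at its level, not its own. So these shares do not cover genes of lower level or wider spread. DESeq2 1.42.0, limma 3.58.1, other scaling, filters, cells, mice and no mouse term were alternatives.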

Additional observations from a re-analysis of the deposited data

How the results depend on the processing

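Of the 131 genes called at E18.5, 21 were called under all 15 alternatives, none of them a lower gene, and 130 kept their direction in all. The exception was Hs3st1, which has no value without the female E18.5 mouse and did not pass the filter in the fit of the E18.5 mice alone. DESeq2 called 756 genes (496 higher, 260 lower, the 131 among them), thinned cells gave 353 (303 and 50), limma on cell means 222 (196 and 26), and adding the P1 mice 76 (74 and 2). The female and male P1 mice had 13 and 9 Proliferative EC, below the minimum of 30 cells per class and mouse in the main fit. Leaving out 1 mouse gave 41 to 192 genes: 41 without the female and 47 without the male E18.5 mouse, and the lone embryo is then assumed to vary like the other groups. With no replicate block, 135 genes (133 and 2) were called, 108 of them among the 131, so the pairing by mouse changed which genes passed.

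For the difference between E18.5 and P7 in normal air, against 0 genes, DESeq2 called 99 and thinned cells 1. For hyperoxia, DESeq2 called 188, no filter 2, thinned cells 2 and no replicate block 1, and leaving out 1 mouse gave 0 to 12, the 12 without the female hyperoxia mouse. Mcm6 ranged from -0.17 without the male to 1.08 without the female E18.5 mouse, and Pecam1 reversed to -0.0585 in thinned cells and -0.14 by limma. The female share of Proliferative EC was 47.2% over the 2 classes alone. Without thinning, 33.6% of female Nonproliferative embryonic EC had a Top2a read, and the median of detected genes was 4076 and 3729 in Proliferative EC and 3344.5 and 2825 in the other class. The cause of these shifts was not tested.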

Other observations

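Lists of growth and metabolism genes had medians near 0, with members in both directions. On simulated data the test recovered 2% of genes changed by 1 on the log2 scale, so a count of 0 says little of differences of that size. Of 25 ribosome biogenesis genes edgeR called 0, with 1 at an unadjusted p under 0.05 and 0 called by DESeq2 or limma, and the median log2 difference was 0.10. Of 34 oxidative phosphorylation genes it called 0 (1 unadjusted, 0 by DESeq2 or limma), with a median of -0.15 and 15 lower in both mice. Of 18 glycolysis genes it called 0 (2 unadjusted, 1 by DESeq2, 0 by limma), with a median of -0.09 and a range from -2.95 to 3.54, and of 25 proteasome genes 0 (0 unadjusted, 0 by DESeq2 or limma), with a median of -0.07. Ncl, the nucleolar protein nucleolin, had 1300 and 635 CPM in the female and male Proliferative EC and 1063 and 589 CPM in the other class. Ldha, lactate dehydrogenase A, had 576 and 1043 CPM against 744 and 1352 CPM. Aldoa, a glycolytic aldolase, had 432 and 695 CPM against 791 and 1290 CPM, lower in both mice (edgeR adjusted p 0.345).

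Of 13 MHC class I genes edgeR called 0 (5 unadjusted, 5 by DESeq2, 0 by limma), 9 were lower in both mice and the median was -0.47. Of 16 p53 target genes it called 0 (5 unadjusted, 2 by DESeq2, 1 by limma), 7 were lower in both mice and the median was -0.40. Btg2, an antiproliferative gene, had 935 and 620 CPM in Proliferative EC against 2045 and 1467 CPM, with an edgeR adjusted p of 0.242. Of 20 hypoxia genes edgeR called 0 (0 unadjusted, 0 by DESeq2 or limma), 11 were lower in both mice and the median was -0.40. Over all genes tested 30.7% were lower in both mice.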
